A study of Mus musculus with 10 samples.

Results

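The effect of adding miR-133 to the GMT factors was measured on 3 pairs of arrays, which are 6 of the 10 arrays in the series. The pairs are the GMT/miR-133 and GMT arrays of days 3, 7 and 18, matched within day by their titles. A later second day 7 GMT/miR-133 array and an array with added Snai1 were left out. All 6 samples began as mouse embryonic fibroblasts (MEF) transduced with GMT by pMx retrovirus, and were sorted as α-MHC-GFP+ cells on the day given. The GMT/miR-133 cells also received a synthetic mimic of mature miR-133a by transfection together with the virus. The labels name no control mimic for the GMT cells, so the transfection itself and the microRNA cannot be told apart. An array of untreated MEF and an array of heart tissue served only to place the probes. Each arm has 1 array per day, and the labels do not say whether the cells of the 3 days came from separate cultures.

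GMT stands for Gata4, Mef2c and Tbx5, cardiac transcription factors that together push fibroblasts toward an induced cardiomyocyte-like state (iCM). The α-MHC promoter drives a cardiac myosin gene, so a GFP reporter under it marks cells that have started this programme. miR-133 is a microRNA abundant in heart and skeletal muscle, and microRNAs lower the output of messenger RNAs that they pair with.

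The sources used here do not pair the chip's probe IDs with genes, so probes are given by ID, no gene is named, and the cardiac identity of the sorted cells could not be checked against markers. Values are spot intensities on the log2 scale after background correction and quantile normalization, and a difference of 1 is 2-fold. On the 6 arrays, 19112 to 20312 of 23474 probe spots exceeded the 95th percentile of blank spots. Tests ran over the 19930 probes above that cutoff on at least 3 of the 6 arrays. The day 7 pair was scanned in another session than the pairs of days 3 and 18. The detector gain was 38 with GMT/miR-133 and 35 with GMT at day 3, 30 for both arms at day 7, and 37 with GMT/miR-133 and 38 with GMT at day 18. The first of the 2 types of positive control spot had raw medians of 8182.5 with GMT/miR-133 and 4969.5 with GMT at day 3. At day 7 they were 8818.5 with GMT/miR-133 and 9939.5 with GMT, and at day 18 they were 5256.5 with GMT/miR-133 and 5807.5 with GMT. The second type had 19928 with GMT/miR-133 and 16954.5 with GMT at day 3, 19334.5 with GMT/miR-133 and 20180 with GMT at day 7, and 17222 with GMT/miR-133 and 17058 with GMT at day 18. The part of these scan differences in the results was not tested. Days 3 and 7 are exchanged in both arms between the scanner files and the authors' value table, so each pair holds in either source but its day does not. The days below are those of the scanner files.

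The arms of a day were alike over most of the chip. Differences between GMT/miR-133 and GMT had standard deviations over probes of 0.18, 0.20 and 0.17 (log2) for days 3, 7 and 18, and 97.9% to 98.96% of probes lay within 1.5-fold. Arrays of different days within an arm lay further apart, with standard deviations of 0.23 to 0.37 for GMT/miR-133 and 0.26 to 0.39 for GMT. At day 3, 19 probes were at least 2-fold higher with miR-133 (0.0953% of those tested) and 13 were lower (0.0652%). At day 7, 21 were higher (0.105%) and 58 lower (0.291%). At day 18, 4 were higher (0.0201%) and 29 lower (0.146%). With 1 array per side, these counts have no replicate check. Both directions together, these are 32, 79 and 33 probes at days 3, 7 and 18. The counts came to 496, 527 and 900 with the local background around each spot in place of blank spots, and to 79, 142 and 86 with an offset of 16.

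Across the 3 days, 5 probes averaged at least 2-fold higher with miR-133 and kept that direction at every day, 0.0251% of those tested, and 13 were at least 2-fold lower, 0.0652%. At a mean of at least 1.5-fold, 37 were higher (0.186%) and 77 lower (0.386%), so lower probes outnumbered higher ones at both sizes. With the local background the order turned at 2-fold, to 69 higher and 25 lower. Without day 7, 2 probes were higher and 11 lower, and without day 18, 9 were higher and 18 lower. By limma's moderated model with day as a block, no probe passed an adjusted p of 0.05 (0 of 19930, or 0%). The smallest adjusted p was 0.202, and 1916 probes (9.61%) had an unadjusted p under 0.05, 944 higher and 972 lower with miR-133. The count of calls turned on the variance model and the background: limma called 161 probes with a trended and robust variance, 77 without background subtraction and 91 with an offset of 16. The days are the only replicates, so a p-value rests on how far the arm difference varied over days, which limma moderates toward a variance pooled over probes.

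**Figure D1:**
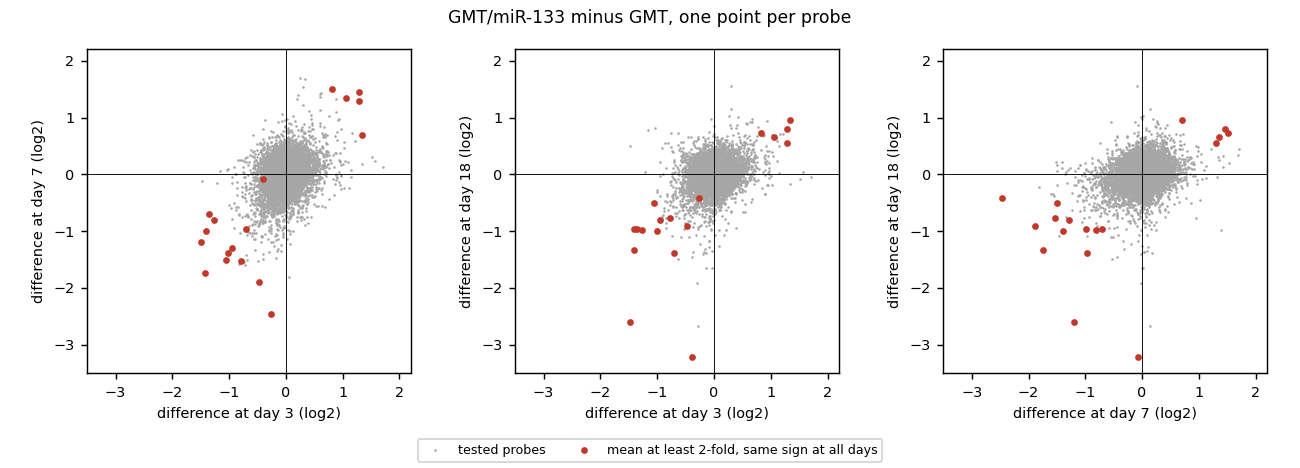
GMT/miR-133 minus GMT on the log2 scale at 1 day against another, with 1 point per tested probe and the axes in log2 units. Red points are the 18 probes with a mean of at least 2-fold and the same sign at all days, and most grey points lie close to 0 on both axes.

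The pairs share no array, so probes picked on 2 days can be read on the third. Of 42 probes at least 1.5-fold lower at days 3 and 7, 38 were lower at day 18 as well, with a median of −0.48 (log2), while 48.4% of all tested probes were lower that day. All 26 probes picked as lower at days 3 and 18 were lower at day 7, with a median of −0.71, against 48.6% of all probes. Of 37 picked at days 7 and 18, 36 were lower at day 3, with a median of −0.51, against 49.6% of all probes. Of 31 picked at days 3 and 7, 29 were higher at day 18, with a median of 0.41, against 49.8% of all probes. Of 21 picked at days 3 and 18, 16 were higher at day 7, with a median of 0.39, and 50.8% of all probes were. All 7 picked at days 7 and 18 were higher at day 3, with a median of 1.16, where 48.1% of all probes were. The lists overlap, so these readings are not separate checks. The same 15 probes, at least 1.5-fold lower at all 3 days, are in all 3 lower lists. Likewise the same 7 probes are in all 3 higher lists. The shares of all probes include many dim probes and were not matched for level. Over all tested probes the day differences were only weakly related, with Pearson's r of 0.28 for days 3 and 7, 0.21 for days 3 and 18 and 0.23 for days 7 and 18. These are correlations across 19930 probes of arrays normalized together, and probes are not replicates.

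Among the probes higher with miR-133, M300012836 had the largest mean difference. It stood at 9.57, 7.99 and 10.08 with GMT/miR-133 at days 3, 7 and 18, against 8.28, 6.53 and 9.29 with GMT. GMT/miR-133 was higher within each day, but the arms overlapped across days because the day 7 pair was low. The mean difference was 1.18 ± 0.35 (log2, SD, n = 3 days; limma, adjusted p = 0.212). Heart stood at 14.60 and MEF at 5.70 for this probe, so all 6 iCM arrays lay between them.

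M200000366 was at 11.63, 10.85 and 11.18 with GMT/miR-133 and at 10.35, 9.55 and 10.64 with GMT at days 3, 7 and 18. Every GMT/miR-133 array was above every GMT array, which held for 3.26% of all tested probes, and all 6 were above heart at 8.75 and MEF at 5.89. The mean difference was 1.04 ± 0.43 (log2, SD, n = 3 days; limma, adjusted p = 0.278). M300002037 also separated the arms, with 7.68, 7.77 and 7.40 with GMT/miR-133 against 6.61, 6.42 and 6.74 with GMT. Its controls were low, with heart at 6.23 and MEF at 5.73, and its mean difference was 1.03 ± 0.35 (log2, SD, n = 3 days; limma, adjusted p = 0.224).

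M300001423 moved more with the day than with the arm. Its levels were 10.41, 8.59 and 12.02 with GMT/miR-133 against 9.59, 7.08 and 11.29 with GMT, with heart at 12.97 and MEF at 9.71. The day 18 arrays of both arms were high and the day 7 arrays of both arms low, and the mean difference was 1.02 ± 0.42 (log2, SD, n = 3 days; limma, adjusted p = 0.278). The other 6 of the 10 largest increases had means of 0.791 to 1.001. Of the 10, 6 were heart-high, that is, heart exceeded MEF by 4-fold or more, and 0 were MEF-high by the same measure turned round. Heart-high probes were 2.22% and MEF-high probes 1.65% of all tested probes.

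Among the probes lower with miR-133, M300002557 differed most. It stood at 7.13, 7.16 and 7.89 with GMT/miR-133 at days 3, 7 and 18, against 8.62, 8.36 and 10.50 with GMT. No array of one arm reached the other, which held in this direction for 3% of all tested probes. Heart at 6.31 and MEF at 6.42 were both below all 6 iCM arrays, so the GMT/miR-133 arrays lay nearer to both controls. The mean difference was −1.77 ± 0.75 (log2, SD, n = 3 days; limma, adjusted p = 0.278), with day 18 the largest at −2.61.

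M200013648 had 9.04, 10.80 and 7.52 with GMT/miR-133 against 10.45, 12.54 and 8.84 with GMT. GMT/miR-133 was lower within each day, while day 7 stood above day 18 in both arms by 3.28 with GMT/miR-133 and 3.69 with GMT. The difference varied little over the days, with a mean of −1.49 ± 0.22 (log2, SD, n = 3 days; limma, adjusted p = 0.202). Heart was at 8.23 and MEF at 11.12.

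Of the 10 largest decreases, 6 were MEF-high and 1 was heart-high. Beside M200013648, these MEF-high probes included M300001793, M200001767 and M200004448. M300001793 stood at 10.21, 11.20 and 10.32 with GMT/miR-133 against 11.22, 12.58 and 11.32 with GMT, with heart at 10.17 and MEF at 12.55. M200001767 stood at 8.21, 11.12 and 8.57 with GMT/miR-133 against 9.61, 12.12 and 9.53 with GMT, with heart at 11.82 and MEF at 14.84. M200004448 stood at 9.10, 8.63 and 8.90 with GMT/miR-133 against 9.88, 10.16 and 9.67 with GMT, with heart at 9.85 and MEF at 12.89. The arms did not overlap at M300001793 and M200004448, and overlapped at M200001767, where the day 7 arrays of both arms were high. Their mean differences were −1.13 ± 0.22, −1.12 ± 0.25 and −1.03 ± 0.43 in that order (log2, SD, n = 3 days), with adjusted p-values by limma of 0.202, 0.202 and 0.278.

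M400011405 and M300000002 differed by −1.02 each, without a 4-fold difference between the controls. M200004035, 4-fold higher in heart, went against that group, with 6.71, 6.55 and 7.21 with GMT/miR-133 against 7.18, 8.44 and 8.12 with GMT. M200000796 reached the list mainly through −3.22 at day 18, and M200000049 through −2.46 at day 7.

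**Figure D2:**
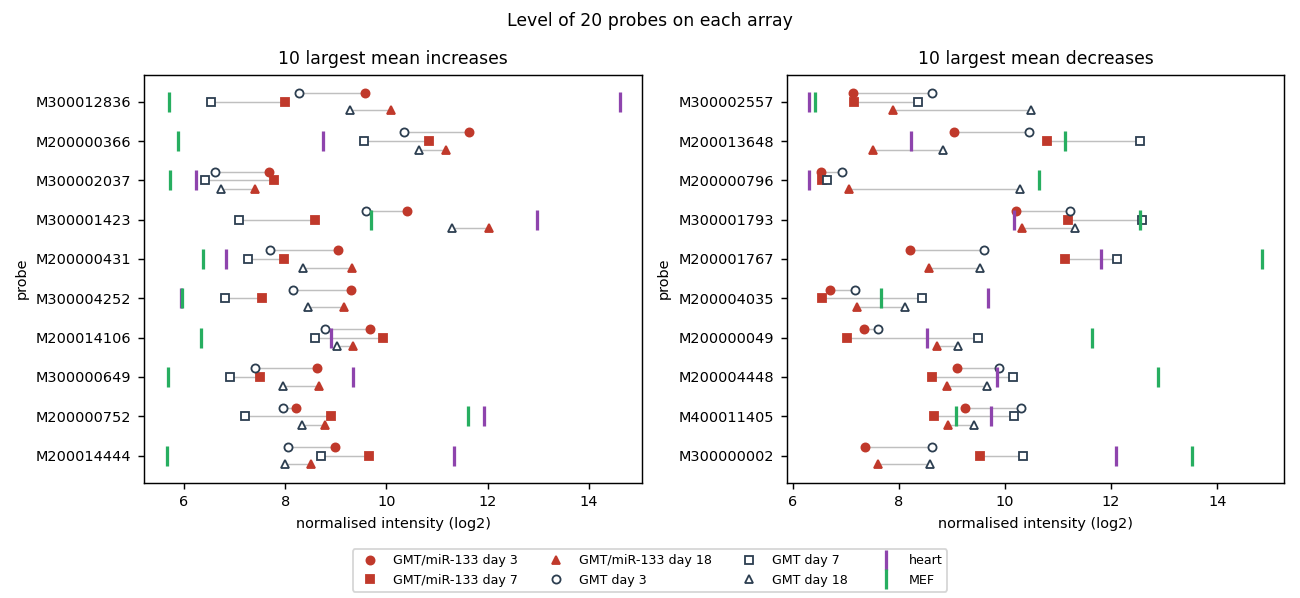
Normalised intensity (log2, x axis) of the 10 probes with the largest mean increase (left) and the 10 with the largest mean decrease (right), each with the same sign at all days. Filled symbols are GMT/miR-133 arrays and open symbols GMT arrays, joined within a day, and bars mark heart and MEF. M300012836 lies between the controls on all 6 arrays, and M300002557 lies above both.

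Of the 6 probes with the smallest limma p, M200013648 is described above, and the other 5 differed by less but nearly constantly over days. M200009303 differed by 0.52, 0.56 and 0.56 at days 3, 7 and 18, M200009335 by 0.87, 0.67 and 0.69, and M300006691 by 0.69, 0.68 and 0.52 (log2). In the other direction M200000995 differed by −0.68, −0.72 and −0.69 and M400004210 by −0.67, −0.74 and −0.74. All 5 had an adjusted p of 0.202 by limma, as did M200013648, and so did not pass. The same 6 passed in all 3 fits that made calls, with adjusted p-values by limma of 0.000647 to 0.0493. They passed in none of 9 other fits, where the adjusted p-values by limma were 0.113 to 1. These fits drew on the same arrays that ranked the 6, so nothing further is read from this. M200009335 and M300006691 were among the probes high in heart, at 12.49 and 14.31, against 5.67 and 9.66 in MEF. With the local background M200009335 turned to −0.28.

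The direction of the arm difference varied in steps with the contrast between heart and MEF. Of 353 tested probes 4- to 16-fold higher in heart, 38.0% were higher with miR-133 in each of the 3 pairs, and of 90 probes at least 16-fold higher, 55.6% were. The same held for 14.8% of all 19930 tested probes and for 25.3% of the 789 probes 2- to 4-fold higher in heart. On the other side, 33.9% of 1028 probes 2- to 4-fold lower in heart were lower with miR-133 in each pair, as were 41.3% of 305 probes 4- to 16-fold lower and 41.7% of 24 probes at least 16-fold lower, against 14.7% of all probes. Heart and MEF values do not enter the subtraction between arms, but both arrays were in the quantile normalization. Normalized without them and the other 2 arrays, the mean shift of heart-high probes was 0.110, against 0.107 with them, and that of MEF-high probes was −0.142, against −0.137. Heart tissue holds several cell types, and in sorted bulk samples fewer cells of a type and less RNA per cell cannot be told apart.

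Shifts in the median were small, and their means over days had the same order. Probes at least 16-fold higher in heart had medians of 0.23, 0.13 and 0.20 at days 3, 7 and 18, a mean of 0.19 ± 0.055 (log2, SD, n = 3 days). Those 4- to 16-fold higher averaged 0.089 ± 0.036 and those 2- to 4-fold higher 0.049 ± 0.022. Probes within 2-fold averaged 0.002 ± 0.002. The groups lower in heart averaged −0.076 ± 0.019 at 2- to 4-fold, −0.134 ± 0.051 at 4- to 16-fold and −0.258 ± 0.199 at 16-fold and over. The last group was at −0.038 at day 3 and −0.43 at day 7, so its spread was nearly as large as its mean. All groups beyond 4-fold kept their sign at each day under the 7 other settings of background, scaling, filter and source tried. The 2- to 4-fold groups did not. With median scaling the lower one was at 0.052 at day 3 and the higher one at −0.009 at day 18. The higher one was at −0.036 at day 3 with the local background. In the authors' value table the higher one was at −0.023 at that table's day 7, which is the day 3 pair of the scanner files. The median of all probes for that pair in that table was itself −0.103. There the group at least 16-fold lower in heart, at −0.138, was little below all probes. With the local background that group was at −0.032 at day 7, against −0.009 for all probes. A kept sign therefore did not always mean a clear distance from the median of all probes.

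**Figure D3:**
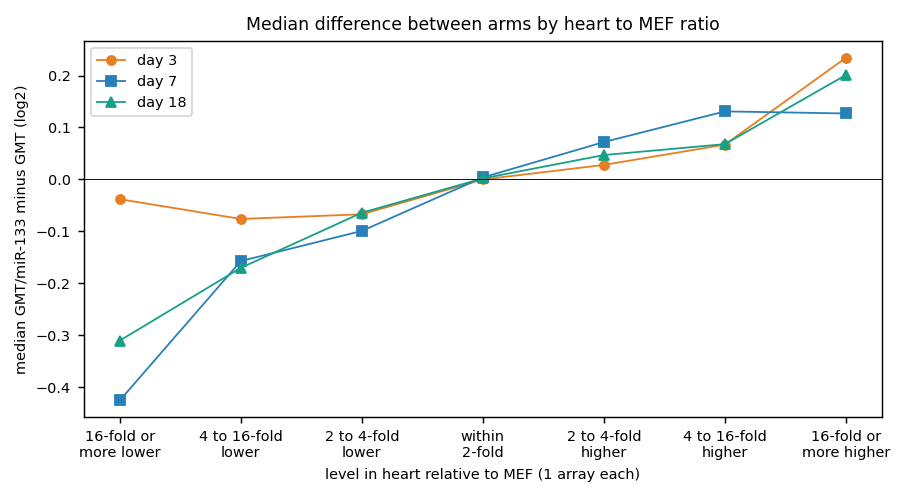
Median GMT/miR-133 minus GMT difference (log2, y axis) for tested probes grouped by their level in heart relative to MEF (x axis), with 1 line per day. The medians run upward from left to right except at the ends, where the lowest group at day 3 (−0.038) lies above its neighbour (−0.076) and the highest at day 7 (0.127) just below its neighbour (0.131).

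The lists of 1.5-fold probes, whose members also count in the groups above, had the same slant. Among the 37 higher probes, heart exceeded MEF at least 2-fold at 21 (56.8%, against 6.18% of all tested probes), and MEF exceeded heart at 0. Among the 77 lower probes, MEF exceeded heart at least 2-fold at 50 (64.9%, against 6.81% of all tested probes) and heart exceeded MEF at 6 (7.8%). The higher and lower lists had median levels of 8.38 and 8.59, where all tested probes had 6.59 in each arm. Shares among probes of like level were not counted. The arms did not overlap at 10 of the 37 and at 34 of the 77, against 3.26% and 3% of all tested probes in these directions. Both lists were picked for a same-sign difference, so nothing is read from this. Measured against both controls, the mean of the GMT/miR-133 arrays was at least 2-fold above heart and MEF at 12 of the 37 higher probes, where the mean of the GMT arrays was so at 7. For the 77 lower probes the mean was at least 2-fold below both controls at 16 with GMT/miR-133 and at 8 with GMT. The lists were picked for these directions, so the count with GMT/miR-133 could not be the smaller, and nothing is read from it.

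Exceptions existed on both sides. M200002530, 4-fold or more higher in heart, was lower with miR-133, at 9.93, 9.78 and 10.26 with GMT/miR-133 against 10.37, 10.87 and 10.90 with GMT, a non-overlapping order. M200001161 differed by −0.15, −1.34 and −0.75 at days 3, 7 and 18. The MEF-high probes furthest the other way were M200001121, higher by 0.42, 0.35 and 0.74, M200005114, by 0.54, 0.49 and 0.28, and M200000634, by 0.46, 0.24 and 0.57 (log2). Their adjusted p-values by limma were 0.265 to 0.432.

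Many probes past 2-fold at a day were within 1.5-fold at both others. This was so for 12 of 19 higher and 4 of 13 lower probes at day 3. It was so for 9 of 21 higher and 33 of 58 lower at day 7. The counts for day 18 were 4 of 4 higher and 21 of 29 lower. Of all tested probes, 97.9% to 98.96% were within 1.5-fold at a given single day, and the share at both other days together was not counted. All these shares but the 4 of 4 were below that single-day range, so lying within 1.5-fold elsewhere is no trait of these probes. At day 18, M200000796 was at 7.07 with GMT/miR-133 and 10.29 with GMT, while the other days gave 6.54 and 6.56 with GMT/miR-133 against 6.93 and 6.64 with GMT. The day 18 GMT array alone was high, near MEF at 10.63. M200000369, a heart-high probe, was at 8.25 with GMT/miR-133 and 10.93 with GMT at day 18, and at 6.17 to 7.42 on the other 4 arrays, with heart at 10.06 and MEF at 7.16. Here both day 18 arrays were above the other days, the GMT array by more.

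At day 7, M200007659 was at 8.74 with GMT/miR-133 and 10.55 with GMT, and at 5.92 to 6.18 on the 4 arrays of days 3 and 18, with heart at 5.75 and MEF at 12.22. In the other direction M200012772 was at 9.50 with GMT/miR-133 and 7.81 with GMT, where the GMT array alone was low. At day 3, M300005479 was at 10.14 with GMT/miR-133 and 8.44 with GMT and M400001315 at 8.63 with GMT/miR-133 and 7.06 with GMT. M400015041 was at 12.85 with GMT/miR-133 and 14.33 with GMT. Each of these values rests on 1 array per side.

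**Figure D4:**
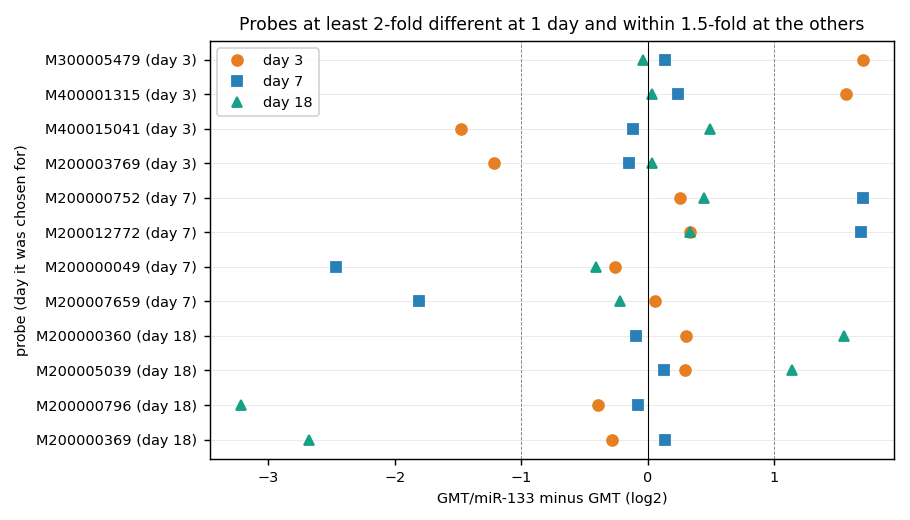
GMT/miR-133 minus GMT (log2, x axis) at each day for the 12 probes chosen because they differed most at 1 day while both other days lay within 1.5-fold. Dashed lines mark 2-fold, and the largest difference is −3.22 for M200000796 at day 18.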

How the data were processed

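Median spot intensity at 635 nm was deposited per array with no normalization, per the file headers. The authors' value table holds scaled intensity with medians near 25.0, and the sources used here do not say how it was made. Intensities were corrected by normexp fitted to blank spots with an offset of 50, quantile-normalized over 10 arrays and log2-transformed (limma 3.58.1, R 4.3.3). Low levels are compressed by the offset. Detection was intensity above the 95th percentile of blank spots. Probes with a spot marked as failed on a paired array, 2 in all, were left out. The arm difference was fitted with arm and day (2 residual degrees of freedom) and adjusted by Benjamini-Hochberg. The code was tested on simulated data. Pairing comes from the labelled day. Deviations from the arm means of same-day arrays correlated across probes at 0.474, 0.782 and 0.763 for days 3, 7 and 18, above every correlation between different days. Such deviations sum to 0 within an arm, so part of this gap is built in. The day 7 pair also shared a scan session of its own. Named probes were the 10 largest mean differences per direction with 1 sign at all days, the 3 smallest p-values per direction, the 2 largest per direction at 1 day only, and the 3 extremes of each 4-fold control group. Members, probe groups and rules were chosen with earlier results of these data known. Alternatives covered background, offset, scaling, filter, variance model, source and left-out days. The number of arrays limits the precision.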

Additional observations from a re-analysis of the deposited data

Results flagged for a closer look

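For 6 probes chosen for 1 day, the difference had the opposite sign at another day, and these differences between days were not tested. M300005479 differed by 1.71 at day 3 and −0.04 at day 18 (log2). M400015041 differed by −1.48 at day 3 and 0.50 at day 18. M200003769 differed by −1.22 at day 3 and 0.04 at day 18. M200007659 differed by −1.81 at day 7 and 0.06 at day 3. M200000360 differed by 1.55 at day 18 and −0.09 at day 7, and M200000369 by −2.68 at day 18 and 0.13 at day 7. Apart from M400015041, the opposite values are smaller than the standard deviation over all probes at that day.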

How the results depend on the processing

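Arms have 3 arrays each with 1 per day, so a value rests on few arrays, and dim probes near the offset show little difference. The count of probes called by limma was 0 with the local background, median scaling, quantile normalization over 6 arrays, the authors' value table, a stricter filter, no filter and each day left out, while 77 were called when no background was subtracted, 91 when the offset was 16 and 161 when the variance was trended and robust. These 3 fits called 18, 20 and 20 of the 30 named probes. With no replicate block (arm alone) it was 0. Probes at least 2-fold higher in the mean numbered 69 with the local background, 10 with an offset of 16, 39 in the authors' value table and 2 to 9 with a day left out. Those at least 2-fold lower numbered 25 with the local background, 92 in the authors' value table and 11 to 18 with a day left out. The mean shift of heart-high probes was 0.107, and 0.071 with the local background and 0.137 with median scaling. For MEF-high probes it was −0.137, and −0.223 in the authors' value table. These groups were set anew under each background, scaling and source. With the groups kept as in the report, a choice made after seeing the data, heart-high probes were at 0.060 with the local background and MEF-high probes at −0.298 in the authors' value table. With a day left out these shifts were 0.095 to 0.113 and −0.169 to −0.118. Probes at least 2-fold different numbered 32, 79 and 33 at days 3, 7 and 18. They numbered 496, 527 and 900 with the local background, 61, 126 and 70 without subtraction, 79, 142 and 86 with an offset of 16, and 463, 501 and 472 under the days of the authors' value table. Median scaling gave 55 at day 3. Of 30 named probes with a mean difference, 2 turned sign, both with the local background: M200000049 to 0.34 and M200009335 to −0.28. M200000049 also turned to 0.31 at day 7 there. At the stricter detection cutoff, 4 probes in place of 9 were above blank spots with GMT/miR-133 only. The causes were not tested.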

Other observations

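Differences between the arms grew with the level of the probe. For the dimmest 3986 tested probes, at mean levels of 5.70 to 5.89 (log2), the standard deviation of the difference was 0.066, 0.065 and 0.073 at days 3, 7 and 18, and 0 probes reached 1.5-fold with the same sign at all days. For the brightest 3986, at 8.31 to 15.74, it was 0.264, 0.313 and 0.232, and 63 of them did, 19 higher and 44 lower with miR-133. Probes above the blank spots on all 3 arrays of only 1 arm were at the bottom of the scale. There were 9 for GMT/miR-133 and 43 for GMT, on a chip of 23473 probes, with no level over 5.89 and no mean difference over 0.10 between the arms. The arrays also differed in probe spots above this cutoff. These were 19112 with GMT/miR-133 and 20312 with GMT at day 3, and 19396 with GMT/miR-133 and 19796 with GMT at day 7. At day 18 they were 19718 with GMT/miR-133 and 19564 with GMT. With the 99th percentile of blank spots as the cutoff, chosen after seeing the data, there were 4 and 58. The 58 for GMT then reached levels of up to 6.5 and mean differences of up to 0.28.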
